A study of Rattus norvegicus with 22 samples.

Results

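Cyclooxygenase 2, the product of Ptgs2, converts arachidonic acid into the precursor of the prostaglandins. The gene is inducible, being low in most resting tissues and switched on by interleukin 1, tumour necrosis factor and growth factors, and its product is raised in many squamous carcinomas of the mouth. Neutrophils are drawn into inflamed tissue by chemokines that bind the receptor CXCR2, and S100a8 encodes a calcium-binding protein that these cells store in large amounts. The tongue is mostly striated muscle under a squamous epithelium, and Ckm encodes the creatine kinase of muscle.

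The pieces compared were 11 oral squamous cell carcinomas (OSCC) of the rat tongue, split into 2 groups that were chosen by the measured Ptgs2 signal itself. Ptgs2-positive pieces are the 7 whose Ptgs2 probe the scanner software marked as well above background (animals 4, 9, 11, 13, 16, 25 and 26), and Ptgs2-negative pieces are the other 4 (animals 17, 21, 22 and 24). They make up 11 of the 22 arrays, and the remaining 11 hold phenotypically normal tongue collected beside the tumour in the same rats. All rats were F344 males of about 33 weeks whose drinking water had held 20 ppm of the carcinogen 4-nitroquinoline 1-oxide (4-NQO) over 10 weeks, so OSCC and normal pieces of both groups share this exposure. Sample titles call every animal untreated and list no agent for normal tissue, whereas the deposited protocol draws both tissues from rats given 4-NQO, which is the reading used here. The RNA came from a different part of each lesion than the histology did, so the cells in the piece on the array were not seen.

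Because 1 gene on the same arrays drew the groups, and the study did not assign them, a p-value between them states only how closely another gene followed Ptgs2 detection over 11 pieces. Ptgs2 itself was given no test in OSCC, and the normal arrays played no part in the choice. Each level is a log2 signal on which 0 is the 75th percentile of the array. A difference is the mean of the positive pieces minus the mean of the negative pieces. A probe counts as called where limma gave a Benjamini-Hochberg adjusted p under 0.05 and the groups differed by 2-fold or more.

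The split and its first contrasts rest on single probes of 60 bases, printed below in the orientation of the array annotation (rn4, plus strand). The Ptgs2 probe lies at chr13:64432919-64432978, the S100a8 probe at chr2:182962328-182962387 and the Ckm probe at chr1:78772431-78772490. Capitals mark a stop codon that closes an open frame through the probe, which the Ptgs2 and Ckm probes hold at bases 58 and 54, so both read the end of a coding sequence.
Ptgs2 probe: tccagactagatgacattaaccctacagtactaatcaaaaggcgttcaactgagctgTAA
S100a8 probe: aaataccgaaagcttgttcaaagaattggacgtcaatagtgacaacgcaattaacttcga
Ckm probe: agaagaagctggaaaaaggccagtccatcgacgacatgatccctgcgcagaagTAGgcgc

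In the Ptgs2-positive pieces the Ptgs2 level had a minimum of -1.61 (animal 16), a median of -0.05 and a maximum of 1.05 (animal 11). In the negative pieces it was -4.97 in animal 17, -5.92 in animal 21, -6.26 in animal 22 and -5.67 in animal 24. The weakest piece inside the limit thus had a processed signal of 193 units (animal 16) and the strongest piece outside it had 10.8 units (animal 17), with no piece between them. On the 11 normal arrays the level ran from -6.44 to -5.20 and was well above background on 0, so the negative OSCC pieces lay in or near the range of normal tongue. Set against the lowest signal that counts as well above background on each negative array, the positive pieces were at least 13.9-fold higher, which describes the choice and was not tested.

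**Figure D1:**
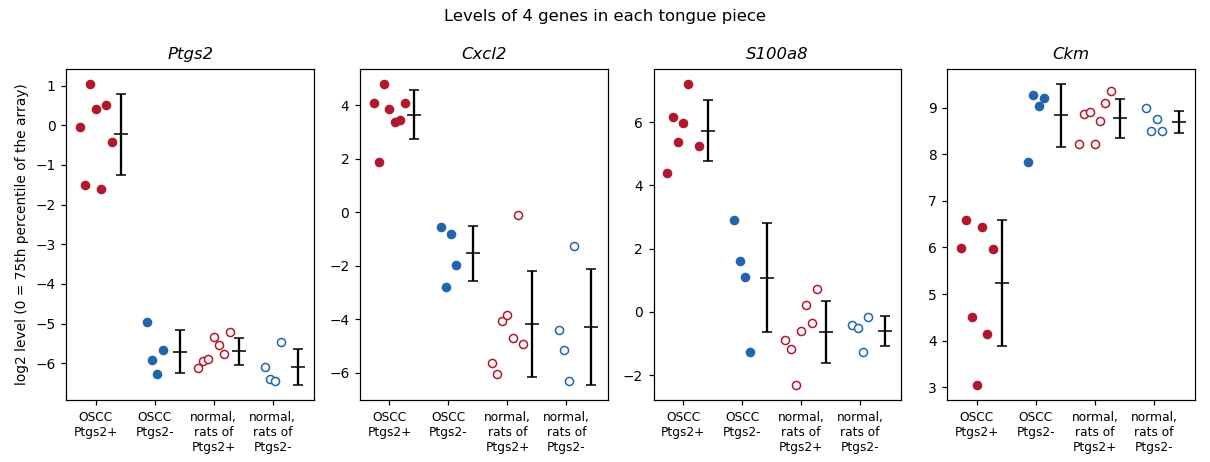
Log2 levels (0 is the 75th percentile of the array) of Ptgs2, Cxcl2, S100a8 and Ckm in single OSCC and normal pieces by Ptgs2 status of the OSCC piece, with mean ± SD (n = 7 or 4; S100a8 has no value in the OSCC piece of animal 25). Ptgs2, which chose the groups, Cxcl2 and S100a8 are higher in every Ptgs2-positive than in any negative OSCC piece and Ckm is lower, while normal tissue of the rats in both groups overlaps.

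Cxcl2, a CXCR2 ligand that attracts neutrophils, ran from 1.89 to 4.81 (median 3.85) in the positive pieces. In the negative pieces, always given in the order of animals 17, 21, 22 and 24, it was -0.57, -2.79, -0.82 and -1.96, so the groups did not overlap. The difference was 5.19 on the log2 scale (standard error 0.54, limma adjusted p = 0.000524), a 36.5-fold ratio. S100a8 ran from 4.38 to 7.21 (median 5.67) in 6 positive pieces, since animal 25 had no value after outlier spots were removed and the fit left it out. In the negative pieces S100a8 was 2.89, 1.62, 1.09 and -1.26, again without overlap. The difference of 4.64 (standard error 0.74, limma adjusted p = 0.00193) is a 24.9-fold ratio. Ckm went the other way, at 3.05 to 6.60 (median 5.97) in the positive pieces and 7.83, 9.28, 9.05 and 9.21 in the negative. The difference of -3.60 (standard error 0.66, limma adjusted p = 0.00271) is a 12.1-fold lower level. In normal tongue Ckm ran from 8.22 to 9.36, a range that held the negative pieces of animals 21, 22 and 24 and lay above that of animal 17.

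Properties of the arrays and of the tissue moved with the groups, and their part in the differences was not tested. The 75th percentile of the signal was 824 ± 324 units in the positive pieces (SD, n = 7) and 426 ± 82.1 in the negative (SD, n = 4; exact two-sided permutation p = 0.0333). In the normal tissue of the same rats it was 357 ± 72.3 against 512 ± 114 units (SD, n = 7 and n = 4; exact two-sided permutation p = 0.0242), the opposite order. Of the negative pieces, 3 were on 1 slide with positive animal 25, and animal 17 was on another with positive animals 11, 13 and 16. The arrays of animals 4 and 9, both positive, carry another scan day than the other 9 OSCC arrays. The summed linear level of 28 skeletal muscle markers, with the 75th percentile of the array set to 1, ran from 125 to 727 in the positive pieces, from 1558 to 4827 in the negative and from 2080 to 4171 in normal tissue. In bulk tissue, fewer cells of a type and less RNA per cell cannot be told apart.

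Over the 13597 of 30367 probes that were well above background on all 22 arrays, the share at least 2-fold away from the normal piece of the same rat had a minimum of 18.5%, a median of 26.7% and a maximum of 30.7% in the positive pieces. It was 19.9% in animal 17, 12.6% in animal 21, 6.04% in animal 22 and 16.6% in animal 24 (exact two-sided permutation p = 0.0091). The ranges overlap, since animal 17 lies above animal 4. All normal arrays and the OSCC arrays of animals 4 and 9 share 1 scan day, while all 4 negative pieces and the other 5 positive pieces were scanned on another, and the part of the scan day in these shares was not tested. The negative piece of animal 24 goes against its label as squamous carcinoma in that its keratins of basal squamous cells were low. Its Krt14 level was 2.94 and its Krt5 level 2.34, below every normal piece (6.63 to 7.50 and 5.34 to 6.10), and the other 10 OSCC pieces had Krt14 at 6.31 or higher. Without animal 24 limma called 1772 probes higher and 4085 lower over all probes.

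**Figure D2:**
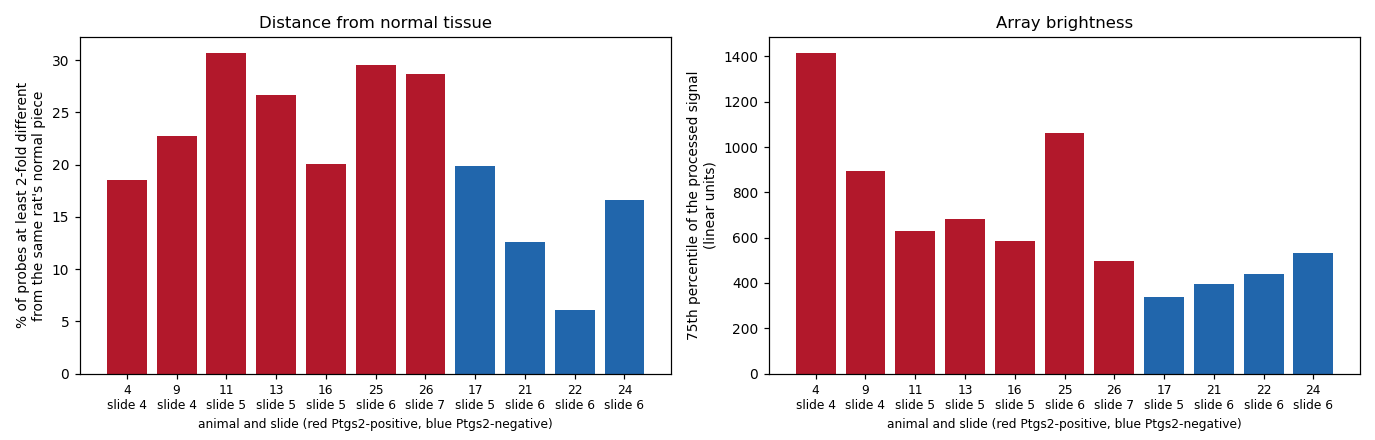
Percent of 13597 probes at least 2-fold different between an OSCC piece and the normal piece of the same rat, and the 75th percentile of the processed signal of the OSCC array in linear units, with 1 bar an animal (red, Ptgs2-positive; blue, Ptgs2-negative) and its slide. Animal 22 has the lowest share (6.04%) and animal 11 the highest (30.7%), and the negative piece of animal 17 (19.9%) lies among the lower positive pieces.

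Across the 30366 probes other than that of Ptgs2, limma called 1972 higher (6.49%) and 4512 lower (14.9%) in the positive pieces. Of those called lower, 1709 (37.9%) were well above background on none of the 11 OSCC arrays, while 0 of those called higher were. The median difference of all probes was -0.37, and single differences are read against it. Fitted on the 18995 probes well above background on at least 4 arrays, whose median difference was 0.02, limma called 1947 higher (10.3%) and 2093 lower (11.0%). The split of higher against lower calls depended on the scaling. Here 30.4% of the calls were higher, against 51.2% of 4247 after quantile normalization (median difference -0.01) and 40.6% of 5795 when the percentile was taken over detected probes (median difference -0.27). Described without a model, 4.32% of the probes were higher and 7.36% lower by 2-fold with no overlap between the 7 and the 4 pieces.

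The sequences upstream of Ptgs2 and of 3 genes of CXCR2 ligands called higher are shown next, since these genes moved together. Each is the 250 bases before the transcription start in RefSeq's annotation of GRCr8, 5′ to 3′ on the strand of the gene. The windows were searched on both strands for the letters TATAAA of a core promoter box, TGACG from the cyclic AMP element, CACGTG of an E-box, TGANTCA of an AP-1 site, and the kappaB consensus. In that order, 12.9%, 18.2%, 5.59%, 6.34% and 3.54% of all 33469 such windows hold a match. Capitals mark the matches, which are 1 E-box for Ptgs2 (chr13:64713813-64714062, plus strand), 2 overlapping kappaB matches each for Cxcl2 (chr14:17467256-17467505, minus strand) and Cxcl6 (chr14:17596418-17596667, minus strand), and 2 core promoter boxes and 1 cyclic AMP match for Ppbp (chr14:17587300-17587549, minus strand). A match is a description of letters only.
Ptgs2: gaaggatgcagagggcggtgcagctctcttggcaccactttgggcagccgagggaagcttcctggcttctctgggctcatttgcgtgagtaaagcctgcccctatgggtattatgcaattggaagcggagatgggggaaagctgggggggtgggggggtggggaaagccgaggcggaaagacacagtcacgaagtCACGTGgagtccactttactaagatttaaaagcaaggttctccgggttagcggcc
Cxcl2: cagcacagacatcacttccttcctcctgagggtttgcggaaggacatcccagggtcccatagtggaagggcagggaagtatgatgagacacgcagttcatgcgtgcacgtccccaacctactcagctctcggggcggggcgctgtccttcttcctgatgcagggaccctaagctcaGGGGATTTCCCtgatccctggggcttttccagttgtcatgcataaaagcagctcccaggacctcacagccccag
Cxcl6: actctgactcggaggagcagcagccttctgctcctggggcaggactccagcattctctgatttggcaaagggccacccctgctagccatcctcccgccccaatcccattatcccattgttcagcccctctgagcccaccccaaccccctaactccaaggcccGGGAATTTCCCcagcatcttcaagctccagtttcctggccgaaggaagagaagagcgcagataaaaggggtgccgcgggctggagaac
Ppbp: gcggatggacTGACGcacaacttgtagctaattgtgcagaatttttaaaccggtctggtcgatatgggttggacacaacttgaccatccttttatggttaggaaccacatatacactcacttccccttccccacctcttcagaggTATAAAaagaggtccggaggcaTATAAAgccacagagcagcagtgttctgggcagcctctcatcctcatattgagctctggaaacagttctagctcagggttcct

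The genes for CXCR2 and its ligands moved with Ptgs2. Of the 8 tested, 5 were higher in the positive pieces and 0 lower, against 6.49% and 14.9% of all probes. These 2 shares of all probes apply to every list below. The median difference was 4.14. All 5 were without overlap, against 4.32% of all probes that were higher by 2-fold without overlap. The summed linear level of the list did overlap. It ran from 8.14 (animal 9) to 49.4 in the positive pieces and from 1.70 to 10.7 (animal 17) in the negative. In normal tissue it ran from 0.75 to 2.69. Ppbp, which encodes a CXCR2 ligand released by platelets, ran from -1.27 to 3.33 (median 2.0) in the positive pieces and was -5.40, -5.82, -5.95 and -5.15 in the negative. It was well above background on 0 negative arrays, so the positive pieces were at least 50.6-fold higher (limma adjusted p = 0.000511). Cxcl6, another ligand, ran from -0.36 to 2.49 (median 1.59) against -4.10, -5.93, -5.60 and -5.86, also with 0 negative arrays well above background. It was at least 41.2-fold higher (limma adjusted p = 0.00017), and its log2 difference was 3.33 after normexp. Animal 17 was the highest negative piece for Cxcl6 and Cxcl2, but not for Ppbp.

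Cxcl1, a further ligand gene, ran from 0.28 to 3.07 (median 1.94) against -2.78, -2.71, -3.76 and -3.35, a 32.3-fold ratio (limma adjusted p = 0.000283). The receptor gene Cxcr2 ran from -1.50 to 0.54 (median 0.03) against -3.98, -1.75, -3.12 and -4.70, a 9.58-fold ratio (limma adjusted p = 0.00172), and was well above background on 2 of the 4 negative arrays. Animal 21 came closest to the positive pieces for Cxcr2. The second receptor gene Cxcr1 (-0.38) and the platelet chemokine gene Pf4 (-0.12) were not called. Nor was the symbol-bearing probe of Cxcl3 (0.17), which 1 OSCC array measured above background. A probe annotated with an Ensembl transcript of Cxcl3, looked at after its values were seen, ran from 0.77 to 4.12 against -2.89, -5.42, -5.87 and -3.70 (limma adjusted p = 0.000283), with 1 of the 4 negative arrays well above background.

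In the pathway around Ptgs2, 9 of 29 other prostanoid and leukotriene genes were higher and 2 lower in the positive pieces, against 6.49% and 14.9% of all probes, with a median difference of 0.54. After normexp, another background correction, 2 were higher and 1 lower. Over all probes normexp left 501 called higher and 736 lower, and its counts are given beside the lists that it changed by more than 1.5 times. Ptgs1, which encodes the constitutive cyclooxygenase, ran from 1.47 to 2.67 (median 2.09) against -0.30, 1.28, 0.05 and -0.16, a 3.62-fold ratio without overlap (limma adjusted p = 0.00257). Ptges, the inducible synthase gene of prostaglandin E2, ran from -0.23 to 1.25 (median 0.74) against -0.65, -0.39, -0.95 and -2.25, a 3.27-fold ratio (limma adjusted p = 0.00757). The gap is narrow for Ptges, since animal 21 lies just under the lowest positive piece. Ptges2 and Ptges3, which encode other synthases of prostaglandin E2, were not called, with differences of -0.94 and 0.22.

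Among the receptor genes, Ptger2 ran from -4.95 to -3.47 against -5.74, -6.00, -6.40 and -6.49 and was well above background on 5 positive and 0 negative arrays. Its bound was only at least 1.03-fold (limma adjusted p = 0.00096), and its difference was -0.19 after normexp. Ptgir, the prostacyclin receptor gene, was 2.10-fold higher without overlap (limma adjusted p = 0.00171), and Ptger4 (0.27) was not called. Ptgis, which encodes prostacyclin synthase, went the other way, at -5.15 to -2.75 (median -3.81) against -2.65, -1.17, -1.27 and -0.55, a 5.06-fold lower level without overlap (limma adjusted p = 0.00437). Ltc4s, the leukotriene C4 synthase gene, was 2.53-fold lower with overlap (limma adjusted p = 0.0249). The remaining genes called higher were Cbr1 (4.70-fold), a carbonyl reductase that acts on prostaglandins, the thromboxane synthase gene Tbxas1 (2.70-fold), the prostaglandin transporter gene Slco2a1 (2.69-fold), Alox5ap (2.25-fold), which serves 5-lipoxygenase, and the prostaglandin D2 receptor gene Ptgdr (2.21-fold). Hpgd, whose product breaks prostaglandin E2 down, differed by 0.72 and was not called.

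Inflammatory cytokine genes were higher as well. Of 27 genes of interleukin 1, interleukin 6 and NF-kB feedback, 17 were higher and 0 lower, against 6.49% and 14.9% of all probes. Their median difference was 1.85, and 6 were higher after normexp. Il1b, an inducer of Ptgs2 in many cells, ran from 1.62 to 4.23 (median 3.22) against -1.01, -0.29, -1.25 and -1.97, a 19.8-fold ratio without overlap (limma adjusted p = 0.000524). Il1a ran from 0.01 to 2.59 (median 1.33) against -1.12, -1.85, -2.63 and -4.52, a 14.3-fold ratio (limma adjusted p = 0.00149). Tnf, the tumour necrosis factor gene, was 8.56-fold higher (limma adjusted p = 0.000788) and measured on 2 of the 4 negative arrays, and its groups were separate too. Il11 and Il1rl1, the receptor gene for interleukin 33, were well above background on 0 negative arrays and at least 11.1-fold and 5.34-fold higher (limma adjusted p = 0.00253 and 0.000283), but neither was called after normexp (differences 1.90 and 0.87). Il6 ran from -6.87 to -2.04 against -5.58, -5.80, -6.17 and -6.56, was well above background on 4 positive and 0 negative arrays, and was not called (difference 1.85, limma adjusted p = 0.0601).

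Of 25 neutrophil markers, 17 were higher and 0 lower, against 6.49% and 14.9% of all probes. Their median difference was 1.97, and 10 were higher after normexp. Their summed linear level ran from 75.4 to 416 in the positive pieces, from 6.98 to 25.9 in the negative and from 2.54 to 7.05 in normal tissue. A linear sum is weighted towards its brightest members, here S100a8 and S100a9, and in animal 25 it lacks S100a8. The sum is thus no measure of neutrophil number. S100a9, the partner of S100a8, ran from 5.13 to 7.93 (median 6.39) against 3.56, 2.09, 1.86 and -0.08, a 23.2-fold ratio (limma adjusted p = 0.00115). Csf3r, the receptor gene for the granulocyte growth factor, ran from -0.41 to 1.94 (median 1.58) against -3.12, -3.32, -2.13 and -3.08, an 18.9-fold ratio (limma adjusted p = 0.000395). Clec4e, a pattern receptor gene of myeloid cells, was well above background on 0 negative arrays and at least 10.8-fold higher (limma adjusted p = 0.000103), but was not called after normexp (1.60). Mpo, a granule enzyme gene, was well above background on 0 of the 11 OSCC arrays, and Elane, although called higher (difference 1.06, limma adjusted p = 0.0323), on 1. Lcn2, which epithelium also makes, was not called (difference 1.65, limma adjusted p = 0.136), and animals 17 and 24 lay inside the positive range.

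Of 12 CC chemokine and receptor genes of myeloid cells, 10 were higher and 0 lower, against 6.49% and 14.9% of all probes. Their median difference was 2.76, and 4 were higher after normexp. Ccl3, a chemokine gene of activated myeloid cells, ran from 0.40 to 3.12 (median 2.19) against -3.02, -2.63, -2.35 and -3.04, a 28.1-fold ratio without overlap (limma adjusted p = 0.000283). The monocyte attractant gene Ccl2 was 7.0-fold higher (limma adjusted p = 0.00543), but overlapped through animal 21. Of 20 macrophage markers, 11 were higher and 1 lower, with a median difference of 1.55, and 7 were higher after normexp. The lower one, Marco, was well above background on no OSCC array. Mmp12, the macrophage elastase gene, and Cd68, a lysosomal gene of macrophages, were 21.6-fold and 3.86-fold higher without overlap (limma adjusted p = 0.00159 and 0.00131). The macrophage genes Csf1r (0.65), Cd163 (-0.13) and C1qb (0.52) were not called.

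**Figure D3:**
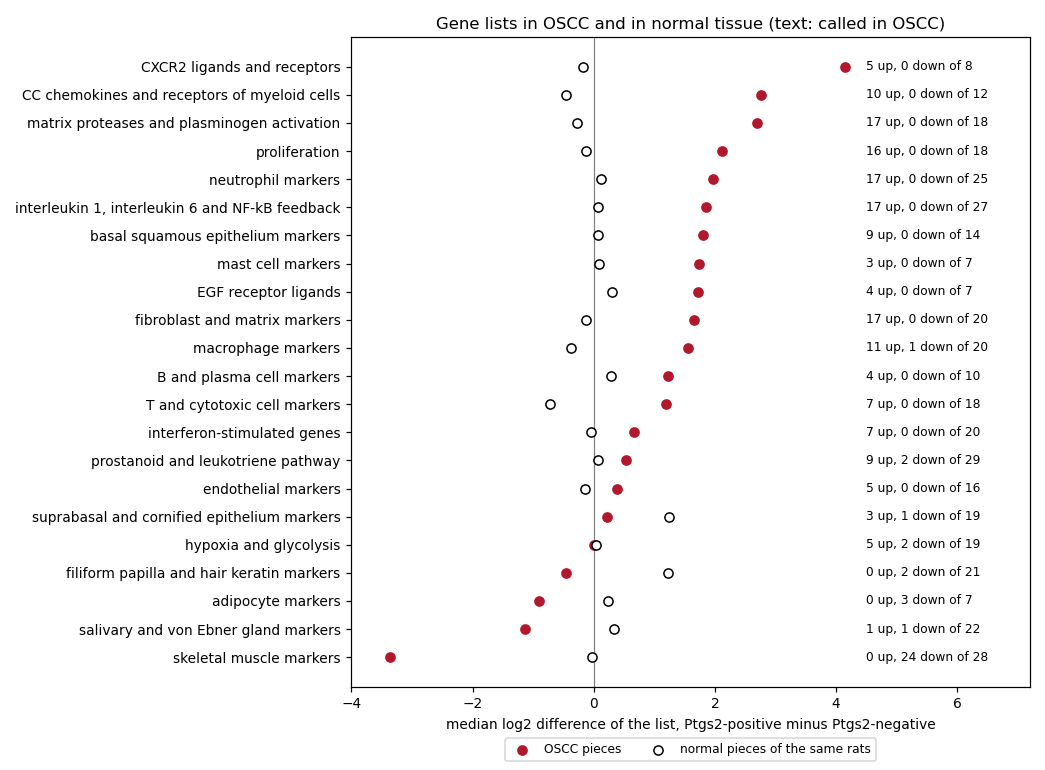
Median log2 difference, Ptgs2-positive minus Ptgs2-negative, of 22 gene lists in the OSCC pieces and in the normal pieces of the same rats, with the number of members called higher (up) and lower (down) in OSCC. Over all probes, 6.49% were called higher and 14.9% lower. CXCR2 ligands and receptors stand highest in OSCC (4.14) and skeletal muscle markers lowest (-3.35), and the same lists lie at -0.18 and -0.02 in normal tissue.

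Of 18 genes of matrix proteases and plasminogen activation 17 were higher and 0 lower, against 6.49% and 14.9% of all probes. Their median difference was 2.70, and 10 were higher after normexp. Mmp13, a collagenase gene, ran from 0.18 to 3.69 (median 2.86) against -3.99, -0.98, -4.87 and -4.82, without overlap (limma adjusted p = 0.00103). It was well above background on 1 of the 4 negative arrays, so no fold is given, and its difference after normexp was 3.94. Animal 21 was the highest negative piece for it. Mmp10, a stromelysin gene, was well above background on 0 negative arrays and at least 19.3-fold higher (limma adjusted p = 0.000999). Its log2 difference after normexp was 2.43. Timp1, which encodes an inhibitor of these proteases, ran from 3.64 to 4.71 (median 4.48) against 1.30, 0.20, 1.38 and 1.84, an 8.19-fold ratio (limma adjusted p = 0.000551). Mmp11 (0.85) was the member not called.

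Of 7 genes on the list of EGF receptor ligands, 4 were higher and 0 lower, against 6.49% and 14.9% of all probes. With scan day as a term or slide as a random block, 4 were higher and 1 lower. With slide as a fixed term, 3 were higher and 2 lower. Areg, the amphiregulin gene, ran from 0.75 to 3.28 (median 2.22) against -1.96, 1.01, -3.22 and -3.76 and overlapped through animal 21 (17.4-fold, limma adjusted p = 0.00345). Hbegf and Tgfa were 4.14-fold and 3.29-fold higher without overlap (limma adjusted p = 0.00193 and 0.00185), and Ereg was 4.98-fold higher with overlap (limma adjusted p = 0.0216). Egfr itself differed by 0.85, under 2-fold, and was not called.

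Of 14 markers of basal squamous epithelium, 9 were higher and 0 lower, against 6.49% and 14.9% of all probes. Their median difference was 1.81, and 4 were higher after normexp. Lama3, a gene of a laminin chain that anchors this layer, ran from -0.93 to 1.65 (median 0.72) against -2.15, -2.19, -2.15 and -3.21, a 7.85-fold ratio without overlap (limma adjusted p = 0.00144). Lamb3, a gene of another laminin chain, was 6.58-fold higher without overlap (limma adjusted p = 0.00182). Keratin genes of the same layer overlapped. Krt17 ran from 7.85 to 8.71 (median 8.46) against 6.81, 8.40, 5.93 and 2.59 (5.37-fold, limma adjusted p = 0.0364), and Krt14 was not called (difference 1.93, limma adjusted p = 0.0652). Animal 24 was the lowest piece for each of these 4 genes, and without it limma called 7 of the 14 higher, while without animal 22 it called 6.

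Of 19 suprabasal and cornified markers 3 were higher and 1 lower, against 6.49% and 14.9% of all probes. Without animal 21, 6 were higher and 0 lower, and after normexp 1 was higher and 0 lower. With slide as a fixed term 0 were higher and 0 lower. The lower call was also lost when animal 4, 11, 13, 17, 22 or 25 was left out, and after quantile normalization. Klk7, Sprr1b and Tgm1, which serve cornification, were higher and Krt4, a keratin of resting mucosa, was lower, and all 4 overlapped between the groups. Krt16, a keratin of activated epithelium, differed by 3.68 and was not called (limma adjusted p = 0.0854), with animal 24 at -5.05. Of 21 filiform papilla and hair keratin markers 0 were higher, and the 2 called lower, Dsg4 and Asb9, were well above background on no OSCC array. The count of this list moved with single animals, to 4 higher and 1 lower without animal 22, 3 lower without animal 24, 1 lower without any of animals 9, 11, 13 and 25, and 0 lower without animal 17 or after normexp.

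Of 20 fibroblast and matrix markers, 17 were higher and 0 lower, against 6.49% and 14.9% of all probes, with a median difference of 1.66. Postn, the periostin gene, ran from 3.78 to 4.92 (median 4.74) against 0.45, 1.87, -0.51 and -0.85, a 19.2-fold ratio without overlap (limma adjusted p = 0.000524). Col1a1, a chain of type I collagen, was 5.79-fold higher (limma adjusted p = 0.00588) with overlap through animal 21, and Acta2 (-0.42), the actin of smooth muscle and myofibroblasts, was not called. Of 18 proliferation genes 16 were higher and 0 lower, with a median difference of 2.11, and 9 were higher after normexp. Rrm2, a ribonucleotide reductase gene of S phase, ran from 2.34 to 3.35 (median 2.83) against 0.29, 1.51, -0.33 and -1.36, a 6.76-fold ratio (limma adjusted p = 0.00148). In normal tissue Rrm2 ran from -0.25 to 1.11, which lies below every positive piece.

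Of 16 endothelial genes 5 were higher and 0 lower, against 6.49% and 14.9% of all probes. Without animal 17, 3 were higher, and after normexp 2 were. Those called were Eng (1.12), a coreceptor gene of endothelium, and the leukocyte adhesion genes Selp (7.99-fold), Sele (measured on 1 of the 4 negative arrays, no fold given), Icam1 (3.29-fold) and Vcam1 (2.62-fold), with limma adjusted p = 0.000788, 0.00108, 0.00105 and 0.018. The genes Pecam1 (0.06), Cdh5 (0.01) and Tek (0.02), which mark endothelium as such, were not called. Of the lymphoid lists, 7 of 18 T and cytotoxic cell markers and 4 of 10 B and plasma cell markers were higher and 0 were lower, and every one of these overlapped between the groups. After normexp limma called 0 and 0 of them higher, and with slide as a fixed term 1 B and plasma cell marker. Cd8a, a chain of the CD8 receptor of cytotoxic T cells, ran from -1.89 to 0.11 (median -0.67) against -5.47, -0.57, -4.12 and -3.63 (limma adjusted p = 0.017), with animal 21 inside the positive range. The B and plasma cell genes called included Cd79b (1.82), Pou2af1 (2.35) and Mzb1 (3.20). The T cell count was 12 without animal 21, 4 without animal 24 and 3 without animal 17 or animal 22. The B cell count was 0 without animal 22, 1 without any of animals 9, 13 and 25, and 2 without animal 11 or animal 24.

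Of 20 interferon-stimulated genes 7 were higher and 0 lower, and 14 were higher without animal 21 and 2 after normexp. Ifit3 ran from 0.58 to 2.78 (median 2.09) against -2.25, -2.42, -2.04 and -1.77, a 17.7-fold ratio without overlap (limma adjusted p = 0.000283), whereas Cxcl10 (0.60), a T cell attractant gene, was not called. Of 7 mast cell genes 3 were higher, a count that was 1 without animal 13, 17 or 21 and 6 without animal 16, and 1 after normexp. Their summed linear level ran from 3.19 to 18.8 in the positive pieces and from 0.70 to 3.22 in the negative. In normal tissue it ran from 3.33 to 9.96, so every negative piece lay below every normal piece, as did the positive pieces of animals 9 (3.19) and 16 (3.26). The other mast cell genes called were Tpsb2 (1.82), a tryptase gene, and Fcer1a (2.09), a chain of the IgE receptor. The tryptase gene Tpsab1 was 11.4-fold higher without overlap (limma adjusted p = 0.00225). Of 19 genes of hypoxia and glycolysis 5 were higher and 2 lower, against 6.49% and 14.9% of all probes, with a median difference of 0.01, and 3 were higher after normexp. Hif1a, the oxygen-regulated factor gene, and Slc2a1, a glucose transporter gene, were 4.16-fold and 4.38-fold higher (limma adjusted p = 0.00125 and 0.00515). Aldoa, an aldolase gene of muscle and other tissues, was 4.12-fold lower (limma adjusted p = 0.00144), Bnip3, a mitophagy gene, differed by -2.10 and was called, and the hypoxia target Vegfa (-0.55) was not called.

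Skeletal muscle genes were lower in the positive pieces. Of 28 markers, 24 were lower and 0 higher, against 14.9% and 6.49% of all probes, with a median difference of -3.35. Myh4, a fast myosin heavy chain gene, ran from -2.84 to 3.61 (median 1.82) against 4.29, 7.92, 6.45 and 7.38, with a normal range of 7.09 to 8.23, a 41.1-fold lower level without overlap (limma adjusted p = 0.00743). Acta1, skeletal actin, ran from 4.37 to 6.61 (median 5.82) against 7.35, 8.99, 8.59 and 8.69, a 7.70-fold lower level (limma adjusted p = 0.00203). Actn3, a fast-fibre actinin gene, ran from -3.55 to 2.91 (median 1.07) against 2.98, 8.19, 4.07 and 6.65, a 43.4-fold lower level (limma adjusted p = 0.0162). For Actn3 the negative pieces lay above the normal range of -0.94 to 1.85, unlike for Myh4. The members not called were the slow-fibre genes Myh7 (0.96), Tnnt1 (0.56) and Tnni1 (0.48) and the titin gene Ttn (-1.85), whose probe was well above background on 1 OSCC array. Animal 17 had the lowest summed muscle level of the negative pieces (1558), and with it as the only negative piece limma called 0 members lower and 2 higher, the slow-fibre genes Myh7 and Tnni1. A group of 1 piece has no spread of its own and was assumed in that fit to vary like the positive pieces.

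**Figure D4:**
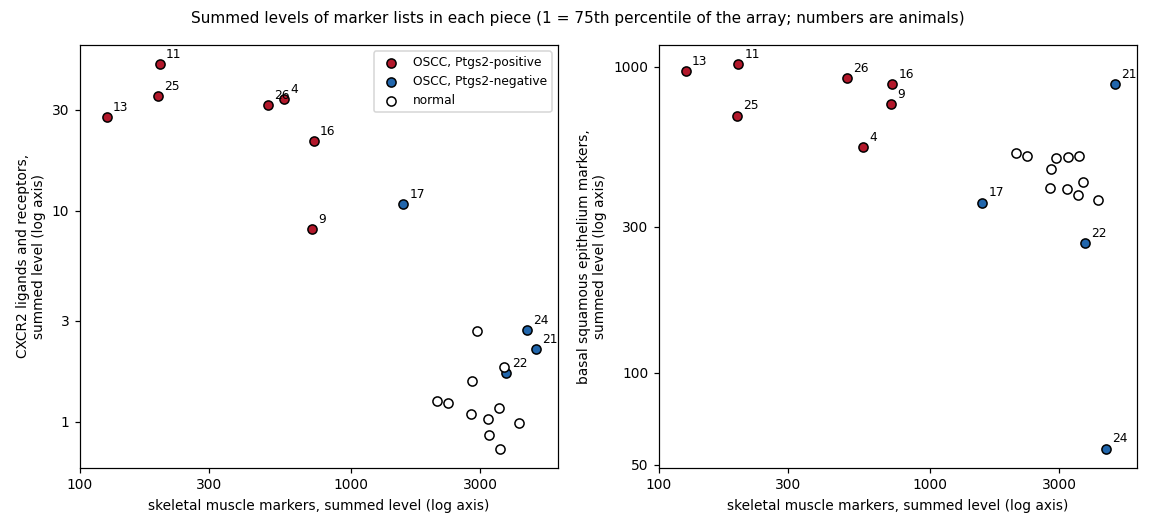
Summed linear level of 28 skeletal muscle markers against that of 8 CXCR2 ligands and receptors (left) and of 14 basal squamous epithelium markers (right), on log axes where 1 is the 75th percentile of the array, with 1 point a piece and the animal beside each OSCC piece (red, Ptgs2-positive; blue, Ptgs2-negative; open, normal). The Ptgs2-positive pieces lie at 727 or below for skeletal muscle and the negative pieces at 1558 or above, with animal 17 nearest to the positive ones. The groups overlap on both vertical axes. Animal 17 (10.7) lies above animal 9 (8.14) on the left, and animal 21 (878) lies above animal 4 (546) on the right.

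Of 7 adipocyte markers 3 were lower and 0 higher, against 14.9% and 6.49% of all probes. The 3 were Adipoq, Fabp4 (-1.75), a fatty acid carrier gene, and Cidec (-3.47), a lipid droplet gene. Adipoq, the adiponectin gene, ran from -4.40 to -0.30 (median -1.75) against -0.27, 1.15, 0.07 and 1.02 (6.73-fold lower, limma adjusted p = 0.0124). Gland markers varied between pieces without following the split. Of 22 salivary and von Ebner gland genes 1 was higher and 1 lower, against 6.49% and 14.9% of all probes, and 0 were called after normexp. Their summed level ran from 8.75 to 3562 in the positive pieces and was 6794 in animal 17, 94.2 in animal 21, 12.6 in animal 22 and 3494 in animal 24, against 5.07 to 8.59 in normal tissue. Krt7, a keratin of ducts and the member called higher, overlapped between the groups, and Slc12a2, a chloride cotransporter gene of secretory cells, was 2.13-fold lower (limma adjusted p = 0.00474). The Slc12a2 difference was -0.99, under 2-fold, when the percentile was taken over detected probes. With that scaling, and also without animal 17, 0 gland genes were called lower.

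The 10 genes with the largest fitted positive differences, among called genes measured in every positive piece, were Cxcl2, Cxcl6, Il24, Mcemp1, Mmp9, Mmp10, Mmp13, Nppb, Ppbp and Tnn. Of the 4 negative arrays, 0 were well above background for Cxcl6, Mcemp1, Mmp10 and Ppbp and 1 for Il24, Mmp9, Mmp13, Nppb and Tnn, so the differences of these 9 genes have no exact size and no order is read from them. After normexp all 10 were called, with differences of 4.19 for Il24, 3.33 for Cxcl6 and 2.12 for Mcemp1. Il24, a cytokine gene of the interleukin 10 family, ran from 0.18 to 3.45 (median 2.62) against -2.81, -3.71, -6.32 and -5.22 (limma adjusted p = 0.000511). Nppb, which encodes a natriuretic peptide best known from the heart, ran from 1.15 to 2.72 (median 1.63) against -3.71, -2.34, -6.10 and -6.27 (limma adjusted p = 0.000524). No fold is given for either. Tnn, the tenascin N gene, overlapped, since animal 21 at -0.93 lay above the lowest positive piece (limma adjusted p = 0.00317). Mcemp1, a membrane protein gene of mast cells and other myeloid cells, was at least 14.8-fold higher (limma adjusted p = 0.000283).

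The 10 largest fitted negative differences were those of Aqp4 (-5.67), Actn3 (-5.44), Myh4 (-5.36), Ldb3 (-4.84), Sbk2 (-4.74), Gpd1 (-4.58), Pvalb (-4.52), Lrrc39 (-4.37), Ppp1r3c (-4.35) and Myoz1 (-4.32). Actn3, Myh4, Ldb3, Pvalb and Myoz1 encode proteins of the sarcomere or of fast fibres. Aqp4, a water channel gene also used by fast fibres, ran from -7.50 to -1.50 (median -3.12) against -0.36, 1.95, 1.38 and 2.46 (limma adjusted p = 0.00497). Gpd1, a glycerol phosphate dehydrogenase gene, ran from -4.09 to 0.15 (median -1.22) against 1.51, 4.01, 2.71 and 3.53 (limma adjusted p = 0.00215). Aqp4 and Sbk2 were well above background on 4 and 5 of the 7 positive arrays and Lrrc39 on 6, and Actn3 and Pvalb lost the call after normexp (-4.77 and -4.18). Of these 10 genes Pvalb alone overlapped between the groups, narrowly, at 4.00 in animal 17 and 4.01 in the highest positive piece.

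**Figure D5:**
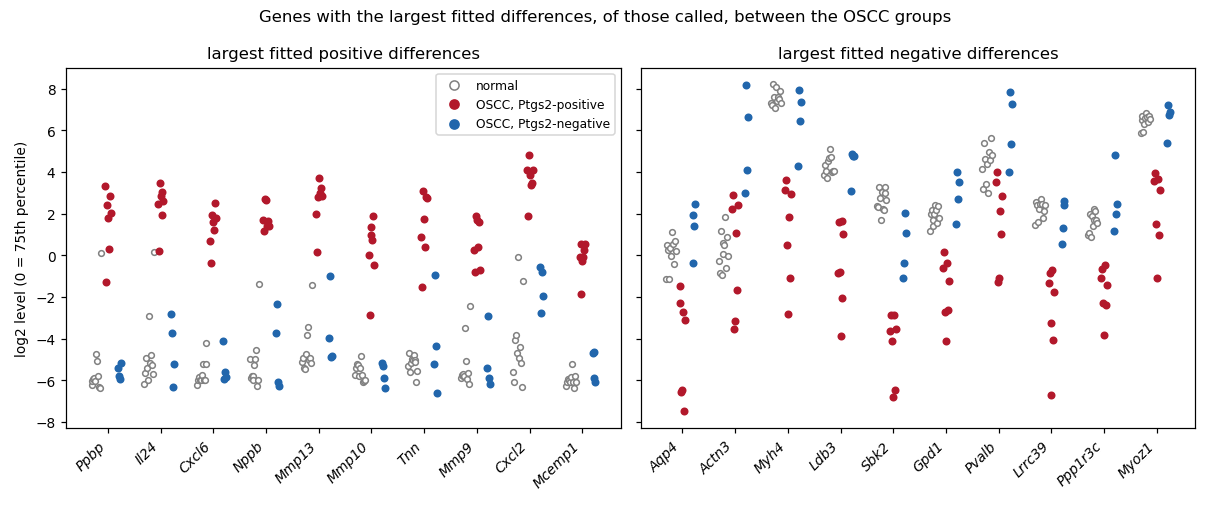
Log2 levels (0 is the 75th percentile of the array) of the 10 genes with the largest fitted positive and the 10 with the largest fitted negative differences among called genes, in single Ptgs2-positive OSCC (n = 7), Ptgs2-negative OSCC (n = 4) and normal pieces (n = 11). The OSCC groups are separate for 18 of the 20 genes and overlap for Tnn and Pvalb. The size of the difference and detection in the higher group chose these genes, so their separation largely follows from the choice. Over all probes, 4.32% were higher and 7.36% lower by 2-fold without overlap. All 4 negative arrays were well above background for each gene of the second set, as the choice required, and for Cxcl2 alone of the first.

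In the normal tissue of the same rats, which the split did not use, limma called 0 of 30367 probes (0%) between rats with a positive and rats with a negative tumour piece. An unadjusted p under 0.05 with a 2-fold difference was met by 482 probes (1.59%), and the lowest adjusted p was 0.0948. Without animal 16 the count was 108. Cxcl2 differed by 0.10 there, S100a8 by -0.04 and Ckm by 0.09 (limma adjusted p = 0.967, 0.972 and 0.838). Ptgs2 differed by 0.40 in this tissue (limma adjusted p = 0.281), where its probe was not above background. Probes called in OSCC and measured in every piece of their higher group were also read in normal tissue. Of 1738 called higher, 748 (43.0%) kept their direction there, with a median difference of -0.06. Of 1847 called lower, 1285 (69.6%) did, with a median difference of -0.09, against 0.13 for all probes. The lists furthest from 0 in normal tissue were those of suprabasal epithelium and filiform papilla, with median differences of 1.23 and 1.23 and 0 members called.

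The change from normal tissue to OSCC within a rat was then compared between the groups, with each rat as a block. These values use the same OSCC arrays as the comparison above and give it no separate support. Limma called 1945 probes as changing more upward in the positive rats (6.41%) and 9380 as changing more downward (30.9%), and 6592 of the latter were well above background on none of the 22 arrays. Cxcl2, S100a8 and Ckm were called (limma adjusted p = 0.00635, 0.00307 and 0.00303). Of the 20 genes named by the size of the fitted difference, Pvalb alone was not (limma adjusted p = 0.0666). The excess of downward calls depended on the processing. After quantile normalization limma called 1962 upward and 1801 downward, after normexp 313 and 267, and on the filtered probes 1778 and 2018.

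The slides gave a further view, since 3 of the 4 negative pieces shared one. Of the probes called in OSCC, 1738 higher ones were measured in every positive piece and 1847 lower ones in every negative piece. Within the slide of animals 11, 13, 16 and 17, 1731 of the 1738 higher probes (99.6%) and 1780 of the 1847 lower probes (96.4%) kept their direction. Within the slide of animals 21, 22, 24 and 25 all 1738 and all 1847 did. Each of these slides holds a group of 1 piece, its arrays took part in the calls, and detection in the higher group chose the probes. Agreement in direction thus largely follows from the choice, and the shares are a description. Within both slides, 1417 higher and 915 lower probes differed by at least 2-fold, all 20 genes named by the size of the fitted difference included. With animal 17 as the only negative piece, which was assumed to vary like the positive pieces, limma called 813 higher and 201 lower. Cxcl2 (4.22), S100a8 (2.83) and Ckm (-2.59) kept their direction there, and S100a8 and Ckm were no longer called.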

How the data were processed

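RNA of 11 OSCC and 11 normal tongue pieces was hybridised to one-colour Agilent rat arrays, 1 array a piece. The authors' scanner software, Agilent Feature Extraction 9.5.3.1 per the file headers, produced the deposited intensity values, which were background-subtracted and detrended within an array and not scaled between arrays. The deposited table of normalized signal values, made by the authors in GeneSpring GX, served as an alternative. Here, outlier spots were left out (0.975% of spots), the spots of each of 30367 probes were averaged, and log2 values were taken relative to the 75th percentile of each array. Symbols came from the array and from RefSeq. Differences were tested with limma 3.58.1 in R 4.3.3 and adjusted over all probes but that of Ptgs2. Array measures were tested by exact two-sided permutation over 330 arrangements, whose smallest p is 0.0030.

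A fit within rats used the rat as a block, because each number marks OSCC and normal tissue of 1 animal. The deviations of paired pieces correlated at -0.132 to 0.349 (median 0.0333). The number of arrays limits the precision. The p-values set a difference against the spread between pieces of different animals. With 1 piece a tissue in each animal, variation within a lesion is part of that spread.

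The members and gene lists were chosen with earlier results of these data known. Named genes are the 4 markers, the 10 largest called differences in each direction measured on every array of the higher group, and the leading called members of each list. Members named as not called, and further called ones, were picked after their values were seen, as were the upstream sequences of Cxcl6 and Ppbp. Alternatives were other scalings, normexp background correction with an offset of 50, a filter on dim probes, scan day, slide, the methods' t-test and leaving out each animal. Fits within a slide and with animal 17 as the only negative piece were added after seeing the data. Some genes chosen by these rules are not reported here.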

Additional observations from a re-analysis of the deposited data

Results flagged for a closer look

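In 46 groups of named-gene levels, 3 had 1 piece far from the others by Dixon's test, which chance gives in about 1 in 20 groups. The Ckm level of the negative piece of animal 17 was 7.83, where the other 3 negative pieces ran from 9.05 to 9.28. The Ldb3 level of the same piece was 3.06, against 4.77 to 4.88. The Mcemp1 level of the positive piece of animal 9 was -1.88, against -0.26 to 0.52 in the other 6. For 21 of 22 genes, the markers other than Ptgs2 and the largest differences, the change from normal tissue to OSCC differed between the groups in the limma interaction, on the same OSCC arrays that showed the difference.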

How the results depend on the processing

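The number of probes called in OSCC, 6484, became 4247 after quantile normalization (2073 lower), 1237 after normexp (501 higher, 736 lower) and 4040 among probes above background on at least 4 arrays (2093 lower), while slide as a fixed term gave 9774 (7621 lower). Among alternatives added after seeing the data, the slide of animals 11, 13, 16 and 17 gave 0 by limma (0 higher, 0 lower; 5966 at an unadjusted p under 0.05 and 2-fold), the slide of animals 21, 22, 24 and 25 gave 211 (35 higher, 176 lower), and animal 17 as the only negative piece gave 1014 (813 higher, 201 lower). Leaving out 1 animal gave 5432 to 7501. The methods' t-test gave 6838 before and 5620 after adjustment. In normal tissue, 0 calls became 6 after quantile normalization, 16 with the deposited table, 17 on the filtered probes and 0 to 108 leaving out 1 animal, 108 being without animal 16. The 11325 calls of the change within rats became 3763, 580 and 3796 after quantile normalization, normexp and the filter. Of the 11325, 9805 kept their direction after quantile normalization and 10703 after normexp. Without the replicate block (paired fit as main) the calls were 11115, and no called probe changed direction. The sign turned under normexp for Ptger2 (-0.19) and Cd8b (-0.051), and for Tchh within the slide of animals 11, 13, 16 and 17 (-2.04) and with animal 17 as the only negative piece (-1.25). The cause was not tested. Of 90 named genes with a fitted difference, 88 were called in the main fit, and Tchh and Krtap13-2 were not. All of the 88 lost the call in at least 1 alternative. That loss was certain, since 3 pieces face 1 within a slide and 1 of these slides gave no call for any probe. Of the 4512 probes called lower, 1709 were well above background on no OSCC array, so the size of their differences is not known.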
